A study of Micropterus salmoides with 6 samples.

Results

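Fatty acid synthesis, desaturation and elongation genes were followed in whole larvae of Micropterus salmoides, the largemouth bass, a freshwater fish raised in aquaculture. The set was a fixed list of 10 gene names, taken where the name stood in the first column of the deposited count table. The rule uses names and no values, although the list was drawn up with earlier results of these data known. Of the 10 names, 9 were present among 27166 genes: acaca, fasn, scd, fads2, elovl1b, elovl4a, elovl5, elovl6 and srebf1. All 9 had enough counts to be tested, among 20627 tested genes. The name acly was not in the table, which holds aclya and aclyb instead; these copies were added after the gene names were seen and are not counted among the 9.

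Larvae of the SP_L group had eaten a diet without phospholipid inclusion (0%) for 12 days and were picked for visible skeletal deformity. Larvae of the SP_H group had eaten a diet with 8% phospholipid for the same 12 days and were picked for normal shape. Each group has 3 libraries, and each library is a pool of 30 larvae from a tank. Each diet thus goes with its own body shape, and diet and deformity cannot be told apart. The labels state no strain, genotype or age for either group. They state for both that the tissue was the whole body, so fewer cells of a type and less RNA per cell cannot be told apart either. The 6 libraries held between 14958887 and 16922264 counts. Markers of liver, muscle, photoreceptors, neurons and epidermis were all detected.

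Fatty acids are built in the cytosol from acetyl-CoA, which ATP citrate lyase makes from citrate that has left the mitochondrion. Acetyl-CoA carboxylase and fatty acid synthase then make palmitate, and membrane enzymes add carbons (elongases) or double bonds (desaturases). The transcription factor made from srebf1 is known to switch on many of these genes in mammals, and polyunsaturated fatty acids are known to restrain it there. In fish, fads2 and elovl5 are best known for turning plant fatty acids into the long polyunsaturated chains of membrane phospholipids.

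No gene of the set passed the test between the diets. The quasi-likelihood test of edgeR, adjusted by Benjamini-Hochberg over all tested genes, called 0 of the 9, beside 14 of all 20627 genes (0.0679%), 12 higher (0.0582%) and 2 lower (0.0097%) in SP_L. Scaled by library size alone, the test called 3 genes higher and 2 lower. At an unadjusted p under 0.05 edgeR counted 0 of the 9, where 12.7% of all genes passed. DESeq2 called 0 of the 9 at an adjusted p under 0.05, where 2.22% of all genes passed (1.61% higher and 0.608% lower), and 2 of the 9 (acaca and elovl5) at an unadjusted p under 0.05, where 10.2% of all genes passed. Limma-voom also called 0 of the 9, beside 18 of all 20627 genes. The lowest edgeR adjusted p among them was 0.406, for acaca.

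Log2 fold changes, always SP_L over SP_H, ran from -0.21 to 0.43, with 7 of 9 positive and a median of 0.14. Over all tested genes 50.5% were positive and the median was 0.0026. With library size alone as the scaling, the median of all genes moved to -0.13 and that of the set to 0.0071, so that relative to all genes the set stood at 0.134 and 0.135. The pool SP_L replicate 2 bore on this value: it was the highest library for 6 of the 9 genes, and without it the set's median was 0.025. The summed level of the skeletal muscle markers (9 tested of 13 listed, 8 positive) lay apart between the groups. It was 64540 to 72550 CPM in SP_H and 84220 to 97510 in SP_L. Here CPM are counts scaled to a common library size by the TMM factors of edgeR. Most of this sum came from acta1b, mylpfb, mylpfa and ckma. The mean log2 CPM of the list, relative to the 6 libraries, overlapped. It was -0.14, 0.10 and -0.60 in SP_H and 0.39, 0.02 and 0.24 in SP_L. The part of muscle in the values of the set was not tested.

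**Figure D1:**
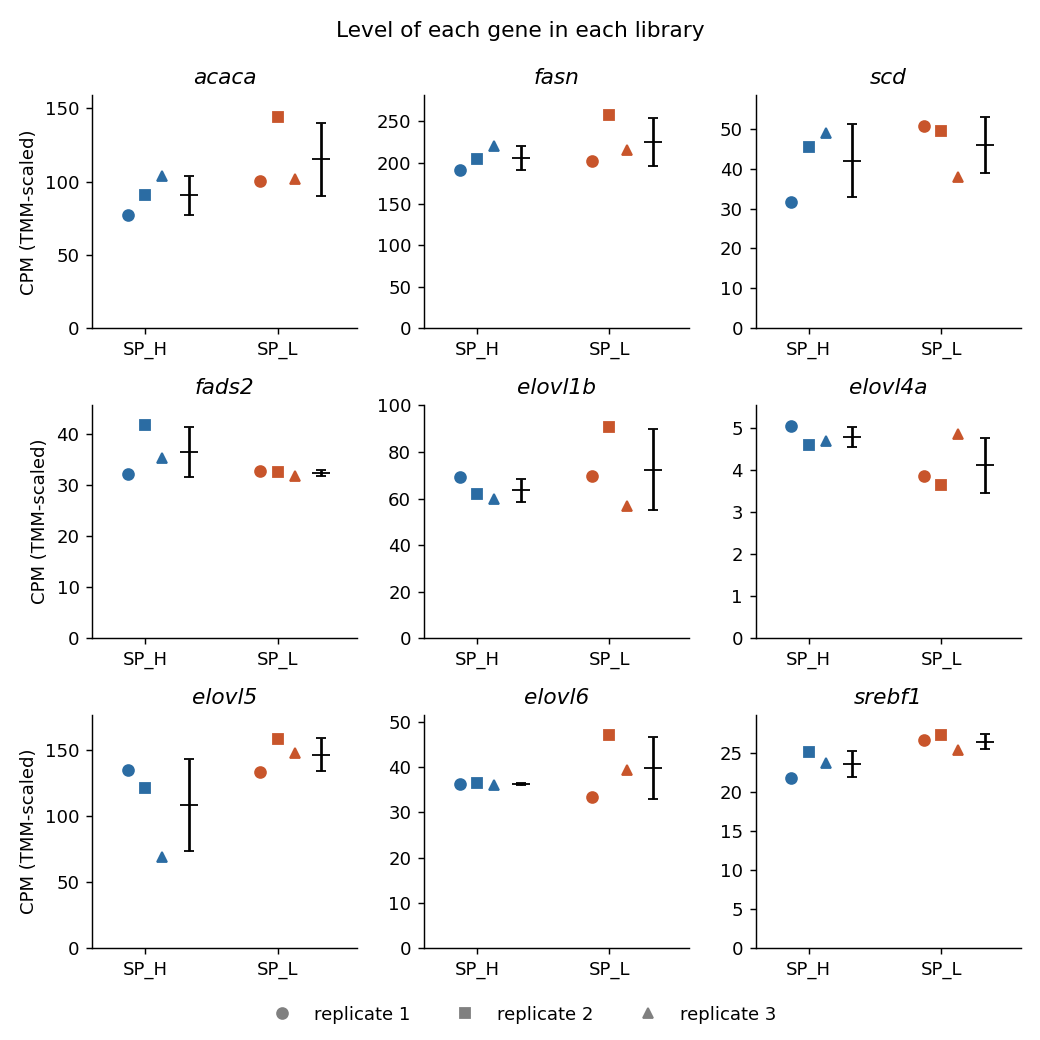
Level of each of the 9 genes in CPM (read counts scaled to library size by TMM; linear axes from 0) in the 3 SP_H pools (blue) and 3 SP_L pools (orange), with the mean and SD over 3 libraries in black. The groups overlap in 8 panels, srebf1 is the exception, elovl5 has 1 SP_H pool at 68.8 CPM far below the rest, and SP_L replicate 2 is on top for acaca, fasn, elovl1b, elovl5, elovl6 and srebf1.

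Acetyl-CoA carboxylase (acaca) makes malonyl-CoA, the building block of new fatty acids. Its level was 77.2, 91.3 and 104 CPM in SP_H replicates 1, 2 and 3, and 100.2, 144 and 102 CPM in SP_L replicates 1, 2 and 3. One SP_L pool stood well above the other 5, and the remaining SP_L pools lay just below the highest SP_H pool. The SP_H mean was 90.7 ± 13.3 CPM and the SP_L mean 115 ± 24.8 CPM (SD, n = 3). On the log2 scale SP_L differed from SP_H by 0.34 ± 0.16 (SE of the fit; 95% interval -0.01 to 0.70; edgeR adjusted p = 0.406). Without SP_L replicate 2 the log2 fold change was 0.15.

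Fatty acid synthase (fasn) joins the malonyl units into palmitate. Its level was 191, 205 and 220.0 CPM in SP_H and 202, 257 and 215 CPM in SP_L. The SP_L range enclosed most of the SP_H range, and only SP_L replicate 2 lay above every SP_H pool. The log2 fold change was 0.13 ± 0.11 (95% interval -0.11 to 0.38; edgeR adjusted p = 0.665), which as a ratio runs from 0.925 to 1.30.

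The ratio of fasn to acaca does not depend on library scaling. On deposited FPKM (counts per length of gene and per library total), it was 2.24, 2.03 and 1.92 in SP_H and 1.83, 1.62 and 1.92 in SP_L. The groups did not overlap, but SP_H replicate 3 and SP_L replicate 3 were nearly equal (1.923 and 1.922). An exact permutation test that counts both directions gave p = 0.1, the smallest p that 3 against 3 libraries allow, and 0.275 after adjustment over 11 ratios examined with gene values known.

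Stearoyl-CoA desaturase (scd) puts the first double bond into saturated chains, giving oleate from stearate. Its level was 31.7, 45.3 and 48.9 CPM in SP_H and 50.5, 49.4 and 37.8 CPM in SP_L. Both groups held 1 low pool, and the other pools of both lay between 45.3 and 50.5 CPM. Its log2 fold change was 0.13 ± 0.17 (95% interval -0.25 to 0.51; edgeR adjusted p = 0.805), and it turned to -0.04 without SP_H replicate 1 and to -0.0056 with library size alone.

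Fatty acid desaturase 2 (fads2) adds double bonds nearer the carboxyl end of polyunsaturated chains. Its level was 32.1, 41.7 and 35.3 CPM in SP_H and 32.6, 32.6 and 31.7 CPM in SP_L. The SP_L pools were close to each other, with an SD of 0.516 CPM against 4.89 in SP_H, and SP_H replicate 1 lay among them. On TMM scaling the log2 fold change was -0.17 ± 0.11 (95% interval -0.42 to 0.08; edgeR adjusted p = 0.567), and -0.06 without SP_H replicate 2, the highest pool. With library size alone it was -0.30 (edgeR adjusted p = 0.192), where the median of all genes was -0.127. It was negative in all 18 alternatives.

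The ratio of scd to fads2 on FPKM was 0.607, 0.667 and 0.851 in SP_H and 0.950, 0.929 and 0.731 in SP_L. The groups overlapped through SP_H replicate 3 and SP_L replicate 3 (exact permutation p = 0.2, adjusted 0.367).

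Of the elongases, elovl5 lengthens polyunsaturated chains and had the widest range of the 9 genes, 2.30-fold from the lowest to the highest library. Its level was 135, 121 and 68.8 CPM in SP_H and 133, 158 and 147 CPM in SP_L. SP_H replicate 3 stood alone at the bottom, while the other 5 pools lay between 121 and 158 CPM. The SP_H mean was 108 ± 34.9 CPM and the SP_L mean 146 ± 12.6 CPM (SD, n = 3). The difference was 0.43 ± 0.21 on the log2 scale (95% interval -0.04 to 0.91; edgeR adjusted p = 0.429). Without SP_H replicate 3 the log2 fold change was 0.19 (edgeR adjusted p = 0.594), and without SP_H replicate 1 it was 0.63 (adjusted p = 0.297); over the 6 fits that each left out 1 library the adjusted p ran from 0.297 to 0.632.

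The same pool was the lowest of the 6 in the mean log2 level of liver, gut, adipocyte and skeletal muscle markers. The summed level of the hepatocyte markers (16 present of 24 listed, 0 of those present at zero) was 2831 CPM in SP_H replicate 3, 4418 and 4655 CPM in the other SP_H pools, and 4524 to 4996 CPM in SP_L. The enterocyte markers (7 present of 16 listed, 0 of those present at zero) summed to 28.4 CPM in SP_H replicate 3 and to between 58.6 and 72.1 CPM in the other 5 pools. Relative to the mean of the 6 libraries, elovl5 stood at -0.84 in that pool on the log2 scale, the hepatocyte list at -0.59, the enterocyte list at -0.94, the adipocyte list at -0.51 and the skeletal muscle list at -0.60, whereas fasn stood at 0.04. In SP_H replicate 3 the photoreceptor, epidermis and neuron lists stood at 0.15, 0.02 and 0.02. The adipocyte list was also low in SP_H replicate 2 (-0.41). Not every gene of these lists was lowest in SP_H replicate 3. Of the adipocyte markers only lpl and pck1 were (29.9 and 1.55 CPM), while cidec, lipea, fabp4a and g0s2 were lowest in other pools. The liver markers apoba, tat and cps1 and the gut marker amn were also lowest in other pools. The muscle marker ckmb had 45.0 CPM in SP_H replicate 3, 596 and 671 in the other SP_H pools and 105 in SP_L replicate 2. By contrast ckma, acta1b, mylpfa, actn3b and myoz1a were lowest in SP_H replicate 1. The summed muscle level was 64540 CPM in SP_H replicate 3 and 65490 CPM in SP_H replicate 1. The part of these tissues in the elovl5 value was not tested. No other gene of the set had a deviation below -0.17 in SP_H replicate 3.

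**Figure D2:**
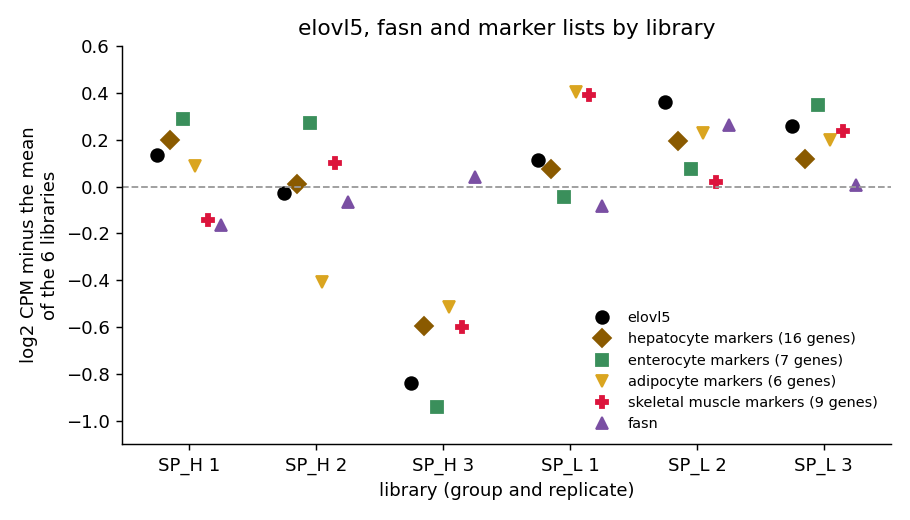
Log2 CPM of elovl5 and fasn, and mean log2 CPM of the hepatocyte, enterocyte, adipocyte and skeletal muscle marker lists, each minus its mean over the 6 libraries (vertical axis), by library (horizontal axis). In SP_H replicate 3 elovl5 and the 4 marker lists lie between -0.51 and -0.94 while fasn lies at 0.04.

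The elongase elovl6 lengthens palmitate and other saturated and monounsaturated chains, the step after fasn. Its level was 36.2, 36.5 and 36.1 CPM in SP_H and 33.3, 47.0 and 39.3 CPM in SP_L. The SP_H pools were nearly identical (SD 0.193 CPM) and lay inside the SP_L range (SD 6.86 CPM). SP_L over SP_H gave a log2 fold change of 0.14 ± 0.12 (95% interval -0.14 to 0.41; edgeR adjusted p = 0.700).

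The elongase elovl1b belongs to a family known in mammals for very long saturated chains, as found in sphingolipids. Its level was 69.1, 61.8 and 59.8 CPM in SP_H and 69.8, 90.9 and 56.6 CPM in SP_L. The SP_L group held both the highest and the lowest pool. The estimate was a log2 fold change of 0.19 ± 0.16 (95% interval -0.16 to 0.54; edgeR adjusted p = 0.665), and -0.0087 without SP_L replicate 2.

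The elongase elovl4a belongs to a family known in vertebrates for very long chains, including polyunsaturated ones, as found in retina and brain. It had the fewest counts of the set, 84, 78 and 76 in SP_H and 54, 58 and 74 in SP_L. In CPM this was 5.05, 4.59 and 4.70 in SP_H and 3.85, 3.64 and 4.86 in SP_L. SP_L replicates 1 and 2 lay below every SP_H pool, and SP_L replicate 3 lay among them. At this depth the exact Poisson interval of a single pool, which covers counting error only, ran from 2.89 to 5.02 CPM in SP_L replicate 1 and from 4.03 to 6.25 CPM in SP_H replicate 1. A log2 fold change of -0.21 ± 0.20 resulted (95% interval -0.67 to 0.24; edgeR adjusted p = 0.712), and it was negative in all 18 alternatives.

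Most photoreceptor markers had log2 fold changes of the same sign as elovl4a. Of the 15 present among 18 listed, 14 were tested and 13 had negative log2 fold changes. EdgeR called 0 of the 14 (lowest adjusted p = 0.0819), and DESeq2 called 4 lower, beside 0.608% lower of all genes. The list also holds rpe65a and rlbp1b (log2 fold changes -0.41 and -0.68), which are genes of other retinal cells. The summed level of the list was 1243 to 1496 CPM in SP_H and 907 to 1102 CPM in SP_L, and 0 of those present were at zero. Within groups the orders differed: the sum was lowest in SP_H replicate 1 and highest in SP_H replicate 2, the SP_H pools with the highest and the lowest elovl4a level. In SP_L the sum was 907, 1013 and 1102 CPM in replicates 1, 2 and 3, and elovl4a was lowest in replicate 2 and highest in replicate 3. Of 12 tested markers of neurons and myelin (15 listed), 11 had negative values, with sums of 1670 to 1838 CPM in SP_H and 1591 to 1657 CPM in SP_L. Their part in the elovl4a value was not tested.

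Most of the summed FPKM of the 4 elongases came from elovl1b and elovl5 in all 6 libraries. The SP_H mean of the elovl1b share was 43.4 ± 3.70% and the SP_L mean 41.0 ± 4.99% (SD, n = 3). The elovl5 share was 37.1, 36.2 and 24.9% in SP_H and 37.4, 35.0 and 41.6% in SP_L. The share of elovl4a was 3.52 ± 0.432% in SP_H and 2.57 ± 0.671% in SP_L, with SP_L replicate 3 (3.249%) just under SP_H replicate 2 (3.257%). The FPKM ratio of elovl5 to elovl4a was 11.3, 11.1 and 6.19 in SP_H and 14.6, 18.4 and 12.8 in SP_L. The ratio of elovl6 to elovl4a was 5.45, 6.04 and 5.84 in SP_H and 6.57, 9.81 and 6.14 in SP_L. For both ratios the groups did not overlap (exact permutation p = 0.1, the smallest possible, adjusted 0.275). The ratio of elovl1b to elovl4a was 12.7, 12.5 and 11.9 in SP_H and 16.9, 23.3 and 10.8 in SP_L, which overlap (exact permutation p = 0.4, adjusted 0.629). The groups also overlapped in the ratios of elovl5 to elovl6, elovl5 to elovl1b and elovl6 to elovl1b (exact permutation p = 0.2, 0.6 and 0.9).

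On CPM, the regulator gene srebf1 was the one gene of the set whose groups did not overlap. Its level was 21.9, 25.2 and 23.7 CPM in SP_H and 26.7, 27.3 and 25.5 CPM in SP_L. Every SP_L pool lay above every SP_H pool, with the closest values being 25.2 and 25.5 CPM. This is 1 of 9 genes, where the groups lay apart in 19.1% of all tested genes, 9.64% with SP_L above and 9.46% with SP_L below. The log2 fold change was 0.17 ± 0.10 (95% interval -0.05 to 0.38; edgeR adjusted p = 0.521). The separation rests on the scaling: on deposited FPKM the values were 4.23, 4.77 and 4.62 in SP_H and 4.60, 4.74 and 4.62 in SP_L, which overlap. On FPKM the groups of fads2 lay apart instead, with SP_L below SP_H.

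**Figure D3:**
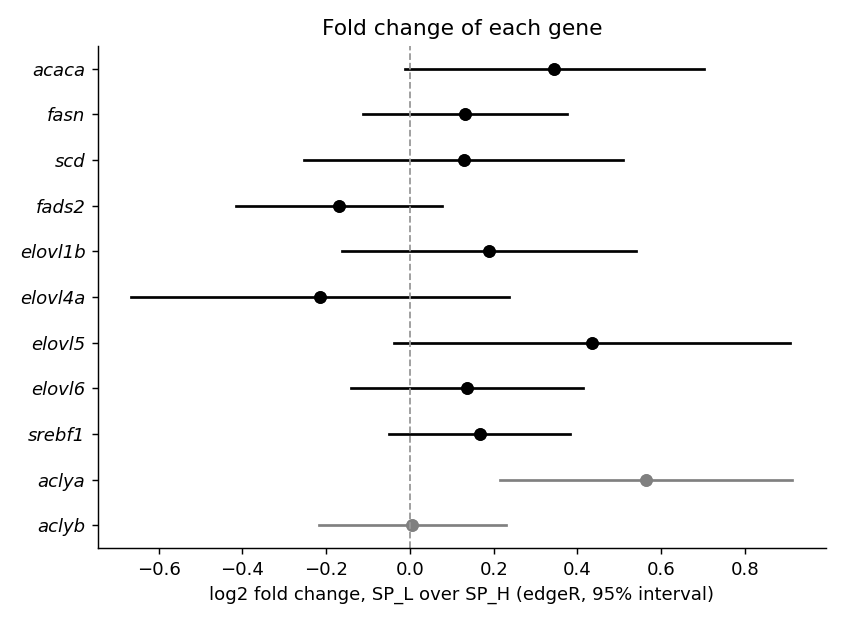
Log2 fold change of SP_L over SP_H (horizontal axis, edgeR, TMM scaling) with its 95% interval for the 9 genes (black) and the acly copies (grey). The intervals of all 9 genes cross 0 (dashed), with the estimates between -0.21 and 0.43, while that of aclya runs from 0.22 to 0.91.

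ATP citrate lyase supplies the cytosolic acetyl-CoA for this pathway, and it has separate copies in this fish. The level of aclya was 65.1, 74.8 and 80.0 CPM in SP_H and 109, 132 and 84.0 CPM in SP_L, so on CPM the SP_L pools lay above the SP_H pools without overlap. On deposited FPKM aclya had 13.6, 15.3 and 16.9 in SP_H and 20.4, 24.7 and 16.5 in SP_L, which overlap. Its log2 fold change was 0.56 ± 0.15 (95% interval 0.22 to 0.91), which edgeR did not call (adjusted p = 0.170) and DESeq2 did (adjusted p = 0.0208). In DESeq2 fits with 1 library left out, the aclya call held without SP_L replicate 3 (adjusted p = 0.000385) and was lost without each of the other 5 (adjusted p between 0.0523 and 0.270).

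The level of aclyb was 110.0, 116 and 137 CPM in SP_H and 124, 125 and 117 CPM in SP_L. Its SP_L pools lay inside the SP_H range, and the log2 fold change was 0.0053 ± 0.10 (95% interval -0.22 to 0.23; edgeR adjusted p = 0.989), and several alternatives turned the sign. The FPKM ratio of aclya to aclyb was 0.570, 0.618 and 0.562 in SP_H and 0.852, 1.02 and 0.694 in SP_L, without overlap (exact permutation p = 0.1, the smallest possible, adjusted 0.275). How reads shared by close copies were counted is not given in the sources used here, which bears on aclya and aclyb, on scd and scdb, and on elovl1a and elovl1b.

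Per length, the elongases elovl1b and elovl5 stood highest in the set and elovl4a lowest. Over the 6 libraries, the mean deposited FPKM was 35.3 for elovl1b, 29.8 for elovl5, 21.4 for fasn, 16.8 for fads2, 16.1 for elovl6, 13.1 for scd, 11.3 for acaca, 4.60 for srebf1 and 2.50 for elovl4a. The median over all tested genes was 4.24 FPKM, so 7 enzyme genes stood at or above the 77.2th percentile, srebf1 at the 52.4th and elovl4a at the 35.0th. In this order the ranges of neighbours overlapped from elovl1b down to acaca. For example fads2 exceeded elovl6 in 4 of 6 libraries. The ranges of acaca (8.93 to 14.9 FPKM), srebf1 (4.23 to 4.77) and elovl4a (1.92 to 2.96) did not overlap each other.

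**Figure D4:**
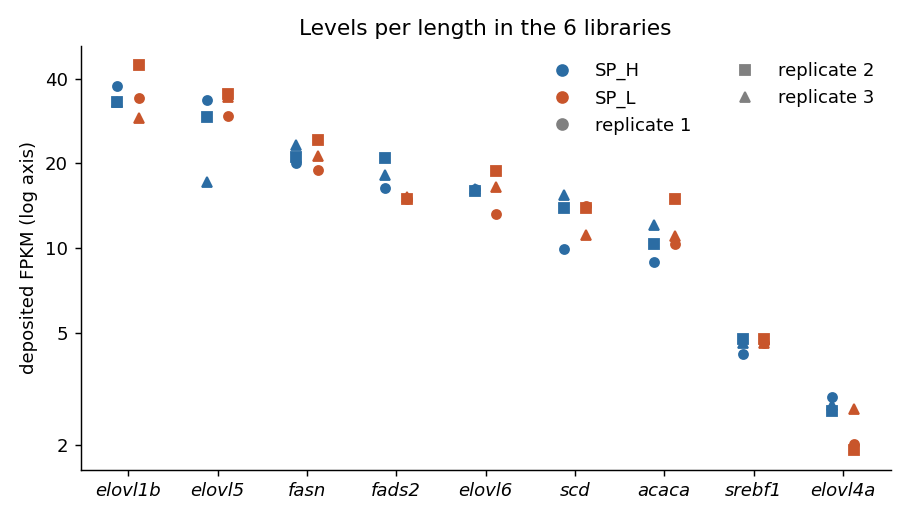
Deposited FPKM (vertical log axis) of each of the 9 genes in each library, genes ordered by their mean over the 6 libraries, SP_H blue and SP_L orange. The first 7 genes lie between 8.93 and 44.6 FPKM with overlapping neighbours, and srebf1 and elovl4a lie apart below them.

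Across the 6 libraries, acaca and fasn had the most similar patterns in the set. Pearson's r of their log2 CPM was 0.97, followed by 0.86 for fasn and elovl6 and 0.78 for acaca and srebf1. Of 36 pairs 22 were positive, with a median of 0.22, and elovl4a had its lowest r with srebf1 (-0.83). These values describe 6 libraries that share depth, scaling and the difference between the groups. Ranked over 9058 named genes with a mean log2 CPM of at least 3, the patterns most like fasn were those of jakmip2 (r = 0.996), cnot3b (0.991), dtd1 (0.971), homeza (0.970) and ppp1r37 (0.967). Those most like srebf1 were b3galt6 (0.982), mkln1 (0.978), arl5a (0.978), nek7 (0.975) and polr3c (0.974). These likenesses are descriptions of 6 libraries, and with library size alone they ran from 0.741 for polr3c to 0.973 for dtd1.

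The wider pathway was read from 7 further lists holding 100 gene names, of which 63 were in the table and 62 tested. EdgeR called 0 of the 62, and DESeq2 called 1 higher (acsl1a) and 1 lower (tkta), beside 1.61% higher and 0.608% lower of all genes. At an unadjusted p under 0.05 edgeR counted 10 higher and 1 lower of the 62, beside 6.90% higher and 5.84% lower of all tested genes. On CPM, groups did not overlap in 10 with SP_L above and 3 with SP_L below, beside 9.64% above and 9.46% below of all tested genes. The median log2 fold change was 0.10, with 39 positive and 23 negative.

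**Figure D5:**
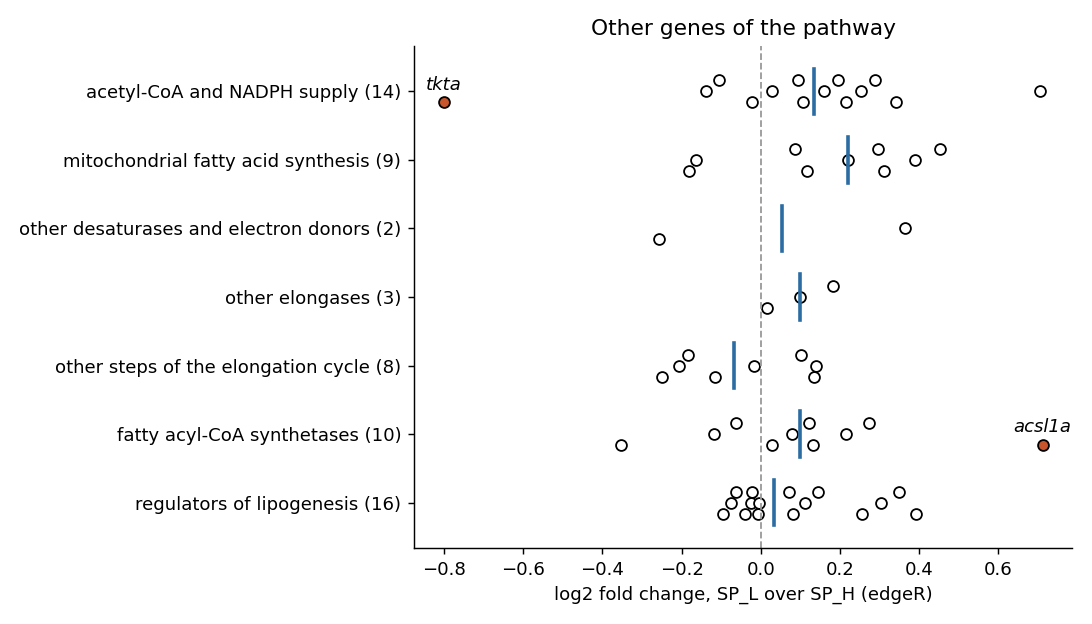
Log2 fold change of SP_L over SP_H (horizontal axis, edgeR) of every tested gene in the 7 further pathway lists, with the number tested in brackets and each list's median as a blue bar; vertical offsets within a list only separate points. Filled points passed DESeq2 (acsl1a and tkta), none passed edgeR, and the list medians lie between -0.07 and 0.22.

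The list drawn up for supply of acetyl-CoA and NADPH also holds neighbouring enzymes such as mlycd. Of its 14 tested genes 10 were positive, with 0 called by edgeR. The 3 described here, tkta, mlycd and me3, had the lowest edgeR p of the list and do not stand for NADPH supply. Transketolase (tkta), an enzyme of the pentose phosphate pathway, had 44.6, 56.3 and 62.3 CPM in SP_H and 22.2, 38.9 and 32.4 CPM in SP_L. All SP_L pools lay below all SP_H pools, with a log2 fold change of -0.80 ± 0.19 (SE; edgeR adjusted p = 0.133, DESeq2 adjusted p = 0.00340). DESeq2 no longer called tkta when SP_H replicate 2 was left out (adjusted p = 0.116) or SP_H replicate 3 (adjusted p = 0.118).

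Malonyl-CoA decarboxylase (mlycd), which undoes the acaca step, had 10.3, 9.00 and 7.54 CPM in SP_H and 16.8, 16.5 and 10.6 CPM in SP_L. The groups were separate by a narrow margin between SP_H replicate 1 and SP_L replicate 3, and the log2 fold change was 0.71 ± 0.20 (edgeR adjusted p = 0.184). On deposited FPKM these 2 pools had 4.06 and 3.90, so the groups overlapped. The malic enzyme gene me3 had a log2 fold change of 0.34 ± 0.13 (SE; edgeR adjusted p = 0.290).

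Fatty acyl-CoA synthetases, which activate free fatty acids with CoA, had 7 of 10 tested genes positive. The gene acsl1a had 90.2, 70.7 and 64.8 CPM in SP_H and 156, 117 and 96.8 CPM in SP_L, without overlap. Its log2 fold change was 0.71 ± 0.18 (edgeR adjusted p = 0.146, DESeq2 adjusted p = 0.00472). DESeq2 no longer called acsl1a when SP_H replicate 2 (adjusted p = 0.147), SP_H replicate 3 (0.116) or SP_L replicate 1 (0.143) was left out. The relatives acsl2 and acsl6 had log2 fold changes of -0.12 ± 0.09 and -0.35 ± 0.26, and their groups overlapped on CPM. On deposited FPKM their groups lay apart with SP_L below. In that order, their highest SP_L values were 19.4 and 1.01, and their lowest SP_H values 20.4 and 1.07.

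Mitochondria have a fatty acid synthesis route of their own, which feeds lipoic acid formation. Of its 9 tested genes 7 were positive and in 4 the SP_L pools lay above all SP_H pools (9.64% of all tested genes), with 0 called by edgeR or DESeq2. The lipoyl transferase gene lipt2 had 18.5, 17.5 and 17.9 CPM in SP_H and 22.6, 22.0 and 22.3 CPM in SP_L. The groups were well apart relative to their spread, yet the log2 fold change of 0.31 ± 0.09 did not pass (edgeR adjusted p = 0.203). The lipoic acid synthase gene lias and the malonyl transferase gene mcat had log2 fold changes of 0.22 ± 0.09 and 0.30 ± 0.13. The groups of lias, apart on CPM, overlapped on deposited FPKM (15.4 in SP_H replicate 3 and 15.2 in SP_L replicate 3).

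The other desaturases tested were scdb and fads6, both not called. The stearoyl-CoA desaturase copy scdb had 23.9, 26.5 and 29.0 CPM in SP_H and 33.1, 37.2 and 31.8 CPM in SP_L. Unlike scd its groups did not overlap, with a log2 fold change of 0.36 ± 0.11 (SE; edgeR adjusted p = 0.193); the difference between the copies was not tested. The gene fads6 had a log2 fold change of -0.26 ± 0.19 (SE; edgeR adjusted p = 0.618).

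The other elongases tested, elovl7a, elovl6l and elovl1a, had log2 fold changes of 0.18 ± 0.15, 0.10 ± 0.24 and 0.02 ± 0.18, and their groups overlapped. The signs of elovl6l and elovl1a turned with library size alone. The gene elovl8a had 0 counts in all 6 libraries, which allows up to 0.214 CPM in the library with the highest limit (3 counts). After each condensation by an elongase, other membrane enzymes reduce, dehydrate and reduce the chain again. Of 8 tested genes for these steps 3 were positive and 5 negative, among them the dehydratase gene hacd2 at -0.18 ± 0.09, the enoyl reductase gene tecrb at 0.13 ± 0.08 and the ketoacyl reductase gene hsd17b12a at 0.14 ± 0.11. None was called by edgeR or DESeq2, and edgeR counted 0 at an unadjusted p under 0.05.

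Regulators of lipogenesis had 8 positive and 8 negative genes of 16 tested, with 0 called by edgeR or DESeq2. The gene insig1, whose product holds SREBP precursors in the endoplasmic reticulum, had 55.5, 56.4 and 64.4 CPM in SP_H and 73.8, 83.7 and 67.0 CPM in SP_L. Its SP_L pools lay above its SP_H pools, with a log2 fold change of 0.35 ± 0.11 (SE; edgeR adjusted p = 0.205). The AMP-activated kinase subunit gene prkaa2, whose product inhibits acetyl-CoA carboxylase, had a log2 fold change of 0.30 ± 0.09 (SE; edgeR adjusted p = 0.215). The oxysterol receptor gene nr1h3, known in mammals to induce srebf1, had one of 0.26 ± 0.10 (edgeR adjusted p = 0.328). In these 3 of the 16 genes, which had the lowest edgeR p of the list, SP_L lay above SP_H without overlap. In 1 more, usf1, named after its values were seen, SP_L lay below SP_H (log2 fold change -0.10 ± 0.08). Of all tested genes 9.64% lay apart with SP_L above and 9.46% with SP_L below. These separations are on CPM. On deposited FPKM the groups of insig1, prkaa2 and nr1h3 overlapped. In that order, their highest SP_H values were 18.7, 8.48 and 7.46, and their lowest SP_L values 18.1, 8.42 and 6.87.

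Of 6 tested adipocyte markers (10 listed), all had positive log2 fold changes, and 0 of those present were at zero. The listed names plin1, adipoqa, adipoqb and fabp11a were not in the table. Their summed level was 139 to 174 CPM in SP_H and 152 to 192 CPM in SP_L, which overlap. The marker with the highest level, fabp4a, had a log2 fold change of 0.02, whereas g0s2, a triglyceride lipase inhibitor gene named after its values were seen, had one of 1.46 (edgeR adjusted p = 0.0760, DESeq2 adjusted p = 0.00732). The mean log2 CPM of the list relative to the 6 libraries did not overlap, with 0.09, -0.41 and -0.51 in SP_H and 0.40, 0.23 and 0.20 in SP_L. Of the 6 markers 2 lay apart with SP_L above, beside 9.64% of all tested genes. These were g0s2 and pck1, both low (at most 4.28 and 7.09 CPM). In cidec, lipea, fabp4a and lpl the groups overlapped. The part of adipocyte content in the values of the lipogenic genes was not tested.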

How the data were processed

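RNA from 6 pools of whole larvae was sequenced as stranded mRNA libraries with paired ends, per the labels' protocols. The deposited counts are raw: whole numbers of reads assigned to each gene. The deposited FPKM values equal these counts divided by a gene length and the library total in all 21149 genes checked, within 1 part in 1000. HTSeq, HISAT2, Bowtie2, Trimmomatic, StringTie, SAMtools, DESeq and Cufflinks are named in the submitters' processing notes, without roles or versions. The notes also name a mouse build (mm10), so no coordinates are given. All 9 names matched symbols of the RefSeq table (ASM1485139v1); 13325 gene IDs are LOC numbers, so further copies under such IDs were not used here.

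The counts were fitted with edgeR 4.0.16 under R 4.3.3: filterByExpr (minimum count 10, minimum total 15), TMM scaling and the quasi-likelihood F test on group alone, adjusted by Benjamini-Hochberg at 0.05 over all tested genes. DESeq2 1.42.0 and limma 3.58.1 served as alternatives. CPM are counts scaled by TMM; log2 CPM used a prior count of 2. Standard errors and 95% intervals come from the edgeR fit. Between replicates of a group, the variance was 11.2 to 14.9 times that of sampling, as a mean over genes. None is thus a repeat of another library of its group. Nothing in the labels says whether the tanks were fed independently, so p-values measure the spread between these pools. The steps were tested on simulated data.

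Named were all members, up to 3 genes with the lowest p in each pathway list, and the 5 genes most like fasn and srebf1. Members and lists were chosen with earlier results of these data known.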

Additional observations from a re-analysis of the deposited data

How the results depend on the processing

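Under all 18 alternatives fixed at the start, edgeR, DESeq2 and limma called 0 of the 9 genes, between 5 and 7 were positive, and the set's median log2 fold change lay between 0.0071 and 0.20 (0.025 to 0.20 with 1 library left out). EdgeR's 14 calls over all genes became 5 with library size alone, 449 with DESeq2, 78 with robust variance estimation, 57 with no filter, 0 in each of the 3 limma fits of log2 FPKM, and between 0 (without SP_H replicate 3 or SP_L replicate 1) and 22 with 1 library left out. Of the 62 further pathway genes DESeq2 called 2.

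Some small fold changes turned sign, and the cause was not tested. Without TMM scaling the median of all genes moved too, to -0.127 with library size alone. In the FPKM fits, in the order given next, it was -0.0918, -0.123 and -0.0662. On log2(FPKM + 1), log2(FPKM + 0.1) and unfiltered log2(FPKM + 1), the values were -0.00334, -0.00366 and -0.00334 for fasn, -0.00723, -0.00842 and -0.00723 for elovl6, -0.115, -0.119 and -0.115 for aclyb, -0.0247, -0.0447 and -0.0247 for elovl6l, and -0.0821, -0.107 and -0.0821 for elovl1a. With library size alone they were -0.00555 for scd, -0.127 for aclyb, -0.0268 for elovl6l and -0.114 for elovl1a. With 1 library left out the ranges were -0.0375 to 0.252 for scd, -0.00866 to 0.335 for elovl1b, -0.0594 to 0.104 for aclyb, -0.0773 to 0.265 for elovl6l and -0.0453 to 0.109 for elovl1a.

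Same-numbered pools were not more alike than others. Deviations of same-numbered libraries from their group means had r between -0.107 and -0.081. Those of differently numbered libraries had r between 0.00362 and 0.0929. This cannot show whether the tanks were paired, since pairing need not leave a visible mark. With the replicate number as a block edgeR called 2 genes in all and 0 of the 9. The DESeq2 fits without 1 library and the acly copies were chosen after seeing the data. Depth limits elovl4a most, with 54 to 84 counts per library.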
